A study of Mus musculus with 703 samples.

Results

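The genes described here are 10 markers of macrophages, measured in mouse gastrocnemius muscle: Cd68, Adgre1, Csf1r, C1qa, C1qb, C1qc, Mrc1, Lyz2, Ccl2 and Cd163. They were chosen by name, as genes in wide use as macrophage markers, and not by a rule on their values. Earlier results of these data were known when they and the lists of related genes below were chosen. Each was found once among the 19088 genes of the deposited expression table, so that all 10 of 10 were present.

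The study profiled 703 muscles from 20 strains of CC-RIX mice, the F1 offspring of crosses between recombinant inbred Collaborative Cross lines, and every library is labelled gastrocnemius muscle. Both sexes were fed either the diet labelled 10% fat + fiber or the diet labelled 44% fat + fiber, the high-fat, high-sugar diet of the study, from 6 weeks of age. A subset received metformin at 5 mg/mL in the drinking water from 7 months of age and was collected at 12 months, whereas animals without treatment came from a cohort of 6 months or one of 12 months. The 469 untreated animals were 119 females and 115 males on 10% fat and 117 females and 118 males on 44% fat, and the 234 metformin animals were 57 females and 59 males on 10% fat and 59 females and 59 males on 44% fat. Each strain had 10 to 26 untreated animals and 7 to 13 metformin animals. The labels do not give the age of a single animal, so the drug and the older age cannot be told apart in any comparison of metformin with untreated animals.

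Macrophages are phagocytes that clear dead cells and debris, present antigen and secrete cytokines. Healthy skeletal muscle holds resident macrophages in the connective tissue between and around its fibres, and monocytes from the blood add to them after injury. Expansion of macrophages with a high-fat diet is best known from adipose tissue. In a bulk muscle library most RNA comes from muscle fibres, so the 10 markers are measured against a large background of contractile transcripts, and fewer macrophages and less RNA per macrophage cannot be told apart.

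Upstream sequences are shown for those of the searched markers whose reference promoter held a GAGGAA. This purine-rich core is the kind of sequence bound by PU.1, the transcription factor that drives the myeloid lineage. The search covered 6 of the 10 markers (Cd68, C1qb, C1qc, Mrc1, Lyz2 and Cd163), each with an entry in the RefSeq table of promoters on GRCm38.p6. GAGGAA on either strand stood in the 250 bases before the start of 4 of these 6, against 23.3% of all 32851 promoters in the table. In the lines that follow, capitals mark GAGGAA or its reverse complement TTCCTC. Bases that lie inside the gene as annotated in the deposited table are left off, which left 250 bases at chr11:69666171-69666420 for Cd68, 250 at chr4:136886201-136886450 for C1qb, 99 at chr4:136893066-136893164 for C1qc and 228 at chr2:14229164-14229391 for Mrc1.
Cd68 (minus strand): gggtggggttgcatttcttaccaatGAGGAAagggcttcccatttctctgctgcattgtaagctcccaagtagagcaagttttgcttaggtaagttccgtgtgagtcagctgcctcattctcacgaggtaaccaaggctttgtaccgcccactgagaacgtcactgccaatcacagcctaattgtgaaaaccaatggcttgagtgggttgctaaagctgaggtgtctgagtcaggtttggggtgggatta
C1qb (minus strand): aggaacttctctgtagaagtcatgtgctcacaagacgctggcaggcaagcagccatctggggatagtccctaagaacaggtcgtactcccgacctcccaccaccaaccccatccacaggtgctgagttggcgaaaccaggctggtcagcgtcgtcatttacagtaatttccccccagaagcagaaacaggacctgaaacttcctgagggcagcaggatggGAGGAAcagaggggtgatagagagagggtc
C1qc (minus strand): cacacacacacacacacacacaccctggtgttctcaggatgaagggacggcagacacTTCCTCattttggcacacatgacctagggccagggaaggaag
Mrc1 (plus strand): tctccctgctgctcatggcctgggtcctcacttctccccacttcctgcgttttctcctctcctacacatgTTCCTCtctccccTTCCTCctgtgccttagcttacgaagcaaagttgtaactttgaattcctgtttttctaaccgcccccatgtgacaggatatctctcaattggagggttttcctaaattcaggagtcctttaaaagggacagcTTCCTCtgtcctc
The Mrc1 stretch held the sequence 3 times and the other stretches held it once each. A match of letters is not a bound site, and the windows of Lyz2 and Cd163 held no match.

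The libraries had 27368536 to 96100529 counts each (median 47876086), and the muscle creatine kinase gene Ckm was at or above 7603 CPM (the count relative to the library size, as scaled by TMM) in every one of them. The level of Xist went against the labelled sex in 14 libraries and strain-specific expression went against the labelled strain in 4. Liver transcripts were more than 10 times their median in 81 libraries. T cell transcripts were more than 5 times their median in 28, of which 22 were untreated and 6 were metformin libraries. Sequencing identifiers fell into a lower range with 544 libraries (400 untreated and 144 metformin) and an upper range with 159 (69 untreated and 90 metformin), and the range was a term in each fit because several strains lay wholly in 1 range.

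The 10 markers added up to 94.7 CPM in the median library, and 6 libraries stood apart from the rest. In 5 untreated libraries of the lower range the sum was 0.135 to 0.316 of the median. Csf1r was 1.37 to 6.71 CPM and Adgre1 0.101 to 0.459 CPM in these 5. Their mast cell markers (0.156 to 0.280 of the median) and fibroblast markers (0.268 to 0.452) were low as well, whereas muscle fibre markers (0.994 to 1.16) were near the median. In 1 metformin library, from a female (CC002/UncJ x CC075/UncJ)F1 on 10% fat, the sum was 4.67 times the median. It held 50.8 CPM of C1qa, 178 CPM of Lyz2 and 5.71 CPM of Ccl2, with T cell markers at 11.2 times and neutrophil markers at 85.9 times their median. Only 4 of 8 listed T cell genes and 2 of 10 neutrophil genes were present in the deposited data. Their median sums were low, at 0.306 and 0.0770 CPM in untreated animals, so such ratios are large at low levels. All other libraries lay between 0.465 and 2.88 of the median. The part of these other cell types in the results below was not tested, and results that rest on these libraries are given with and without them.

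**Figure D1:**
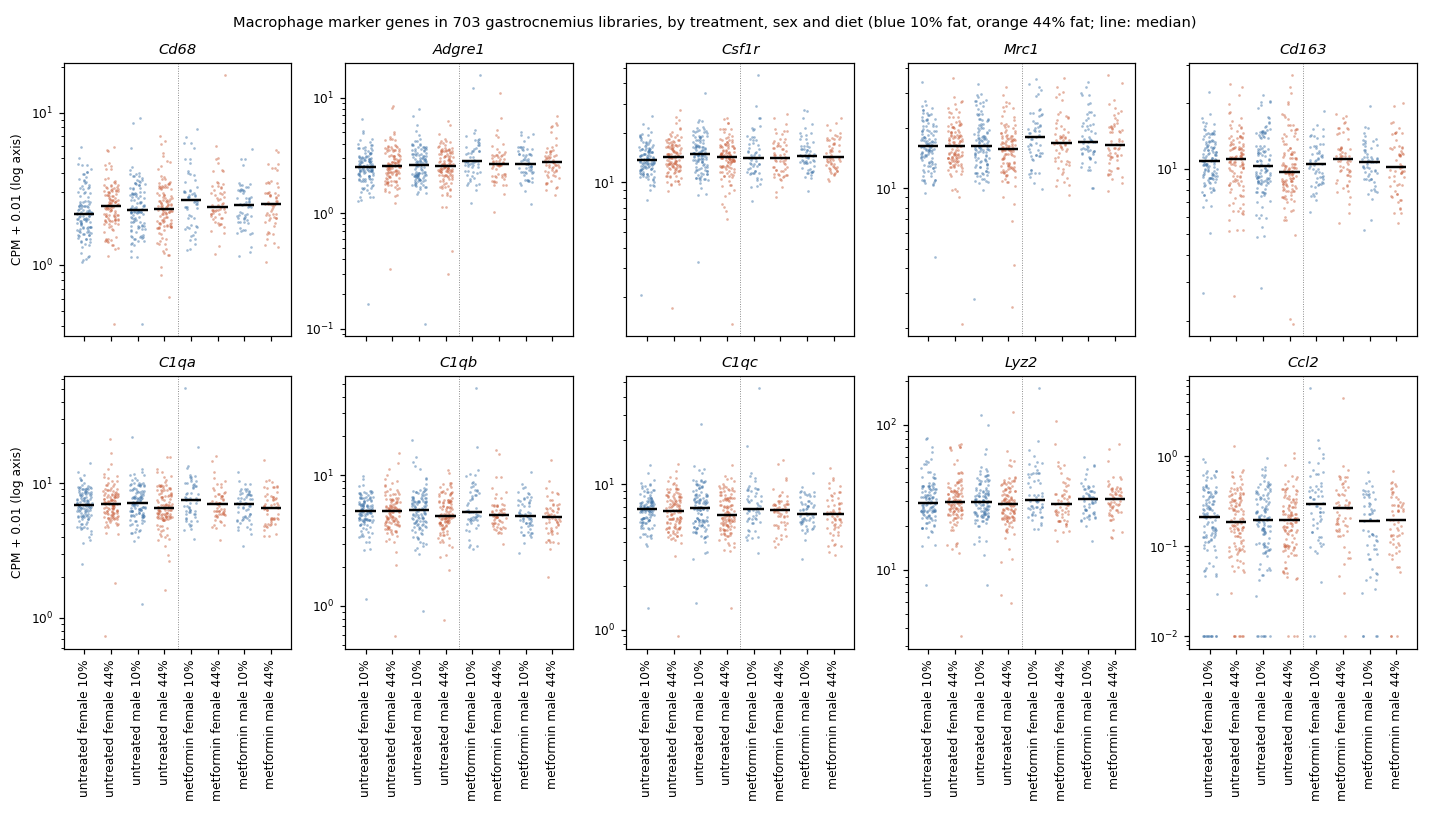
Level of the 10 markers in the 703 libraries, as CPM + 0.01 on a log axis, for the 8 combinations of treatment, sex and diet (each point a library, blue 10% fat, orange 44% fat, line at the median). The groups overlap for every marker, with medians of Mrc1 between 15.7 and 18 CPM, a few untreated libraries far below the rest, and a metformin female far above the rest for C1qa, C1qb, C1qc and Lyz2.

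Levels differed widely among the markers. Lyz2, which encodes the lysozyme of macrophages and other myeloid cells, was the most abundant with a median of 29.3 CPM and a range of 3.47 to 178 CPM over the 703 libraries. The mannose receptor Mrc1 (CD206), a scavenger receptor of resident macrophages, had a median of 16.3 CPM (2.09 to 36.6). Csf1r, the receptor for the growth factor CSF1 on which macrophages depend, had a median of 14.2 CPM (1.37 to 44.7). Cd163, the receptor that takes up haemoglobin bound to haptoglobin, had a median of 10.5 CPM (1.93 to 26.9). The medians of C1qa, C1qb and C1qc, whose products form the recognition molecule of the classical complement pathway, were 6.88, 5.11 and 6.61 CPM. Adgre1, which encodes the F4/80 antigen, and Cd68, a lysosomal glycoprotein, were low, with medians of 2.61 CPM (0.101 to 15.5) and 2.36 CPM (0.402 to 17.5). Ccl2, the chemokine that attracts CCR2-bearing monocytes, was by far the lowest with a median of 0.197 CPM, or 10 counts. Ccl2 had a count of 0 in 39 libraries, and 3 counts, the upper limit that a count of 0 allows, would be 0.05 to 0.0969 CPM there. This limit covers counting error only.

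Per kilobase of exons the order changed. Lyz2 stayed first with a median of 22.3 CPM per kilobase, followed by C1qa at 6.62, C1qb at 4.70 and C1qc at 3.42. Mrc1 (2.56), Csf1r (2.46), Cd163 (1.93) and Cd68 (1.87) came next, with Adgre1 at 0.807 and Ccl2 at 0.173 CPM per kilobase. The 3 complement genes lie side by side on the minus strand of chromosome 4 within 18.7 kilobases on GRCm38, from the start of C1qb at 136880129 to the end of C1qa at 136898803. Lyz2 (chr10:117277334-117282274) has a close copy beside it, Lyz1 (chr10:117287796-117292868), and reads that fit both genes are split by the authors' estimate, so the share between them is uncertain. Lyz1 had a median of 1.41 CPM. Ccl2 and Cd68 lie on chromosome 11, at chr11:82035571-82037453 and chr11:69664213-69666153. Mrc1 lies at chr2:14229392-14332057, Cd163 at chr6:124304656-124330527, Adgre1 at chr17:57358686-57483529 and Csf1r at chr18:61105572-61132149.

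The first comparison asked whether the high-fat diet went with a higher or lower level of macrophage markers in muscle. None of the 10 markers was called different between 44% and 10% fat in untreated animals by edgeR's quasi-likelihood test with Benjamini-Hochberg adjustment, whereas 20.3% of the 16384 genes tested were. DESeq2 and limma voom each called 0, and 1 marker had an unadjusted p under 0.05, as had 31.1% of all genes. The fitted log2 differences ran from -0.10 for Ccl2 to 0.06 for Cd68, with 8 of 10 below 0 and a median of -0.04 against -0.0030 over all genes tested. Without the 6 libraries that stood apart, the count was again 0.

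The general markers were close to level between the diets. Cd68 ranged from 0.402 to 9.21 CPM around a median of 2.22 in the 234 untreated animals on 10% fat, and from 0.402 to 7.02 CPM around a median of 2.38 in the 235 on 44% fat. Adgre1 ranged from 0.101 to 7.90 CPM (median 2.53) on 10% fat and from 0.289 to 8.37 CPM (median 2.55) on 44% fat. Csf1r ranged from 2.04 to 35.2 CPM (median 14.3) and from 1.37 to 27.4 CPM (median 14.2). The diets overlapped over most of their range for each of the 3 genes. The differences of 44% against 10% fat were 4.04% for Cd68 (95% interval -2.37% to 10.9%), 0.754% for Adgre1 (-4.79% to 6.63%) and -0.649% for Csf1r (-4.71% to 3.58%), with edgeR adjusted p values of 0.434, 0.898 and 0.877.

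Among the complement genes, C1qc had the smallest p. It ranged from 1.41 to 25.8 CPM around a median of 6.8 on 10% fat and from 0.890 to 13.8 CPM around a median of 6.35 on 44% fat. The fitted difference was -0.07 ± 0.04 (log2, SE, 234 against 235 animals), at an unadjusted p of 0.0398 and an adjusted p of 0.137 in edgeR. C1qa differed by -0.02 ± 0.04 and C1qb by -0.04 ± 0.04. The differences were -0.05 ± 0.03 for Mrc1 and -0.03 ± 0.04 for Cd163, the scavenger receptors of resident macrophages, and -0.04 ± 0.04 for Lyz2. For Ccl2, with few counts, the interval was wide, from -17.6% to 6.09%.

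Lists of related genes were read in the same fit, in which 20.3% of all genes tested were called. Of 12 genes listed as markers of resident macrophages, 6 fell on 44% fat in untreated animals, among them Cbr2, a carbonyl reductase, by 0.18 ± 0.04 (log2, edgeR adjusted p = 0.000118). The share called was below that of all genes in the next 5 lists. Of 16 genes common to macrophages, 1 fell and none rose. Of 9 tested markers of recruited monocytes and antigen-presenting cells, 1 rose. Of 11 tested growth factors and attractants, 2 were called: Cx3cl1, the ligand of the macrophage receptor CX3CR1, rose by 0.31 ± 0.04 and the macrophage growth factor Csf1 fell by 0.11 ± 0.02. Among 10 genes of lipid-handling macrophages, lipoprotein lipase Lpl alone rose, by 0.11 ± 0.02. Of 12 other complement genes 2 were called, with C3, the central component of the pathway, lower by 0.25 ± 0.06. Adipocyte markers were called for 7 of 7 genes (5 higher), led by leptin (Lep, 1.19 ± 0.08), and fibroblast markers for 3 of 7 (all lower). Their part in the levels above was not tested.

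The same contrast in the metformin animals, which share no animal with the untreated fit, gave 0 of 10 markers called by edgeR (12.1% of 16418 genes tested), with 2 at an unadjusted p under 0.05 (24.5% of genes). These were C1qb, at -0.16 ± 0.07 with an adjusted p of 0.105, and C1qa, at -0.13 ± 0.06 with an adjusted p of 0.159. limma voom called C1qb alone (-0.18 ± 0.06, adjusted p = 0.0454). Both C1qa (-0.17 ± 0.06, adjusted p = 0.0469) and C1qb (-0.22 ± 0.07, 0.0170) were called by edgeR when the 36 libraries richest in red blood cell transcripts were left out. C1qb ranged from 2.55 to 46.4 CPM (median 5.05) in the 116 metformin animals on 10% fat and from 1.66 to 15.6 CPM (median 4.87) in the 118 on 44% fat, so that the groups overlapped almost entirely. The value of 46.4 CPM was that of the metformin female whose library stood apart. Without that library edgeR again called 0 of 10 markers, with C1qa and C1qb still below 0. In total 9 of 10 differences were below 0, with a median of -0.09. Of the 12 resident macrophage markers, 6 fell here too, among them Cbr2 (by 0.25 ± 0.05), the folate receptor gene Folr2 (by 0.23 ± 0.06) and Timd4, a receptor for phosphatidylserine on dying cells (by 0.30 ± 0.08). A test of whether the diet difference itself depended on metformin called 0 of 10 markers in edgeR (0.0902% of 17740 genes, 0 markers at an unadjusted p under 0.05 against 9.07% of genes, and 0 by limma voom).

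Whether the diet difference depended on sex or on strain was tested in the untreated animals. For sex, edgeR called 0 of 10 (0.568% of genes tested), limma voom 0, with 1 at an unadjusted p under 0.05 (Csf1r, -0.13 ± 0.06) and 9.34% of genes. All 10 estimates were below 0, with a median of -0.11. A value below 0 means that the difference of 44% against 10% fat was lower in males than in females. For strain, edgeR called 0 of 10 (4.13% of genes tested), limma voom 0, with 2 at an unadjusted p under 0.05 (16.1% of genes). Within single strains, 92 of the 200 differences of 10 markers in 20 strains were higher on 44% fat. After adjustment over the 200 permutation tests, 1 passed. Cd163 in (CC024/GeniUncJ x CC002/UncJ)F1 was 12.4 ± 2.96 CPM on 10% fat and 7.84 ± 1.94 CPM on 44% fat (SD, 12 animals each), a log2 difference of -0.65 with an adjusted permutation p of 0.0420. This p lay close to the threshold, and a second draw of resamples, in a run without the libraries that stood apart, none of which belonged to that strain, gave an adjusted permutation p of 0.0520. On the deposited transformed values it was 0.0340 (adjusted permutation p).

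**Figure D2:**
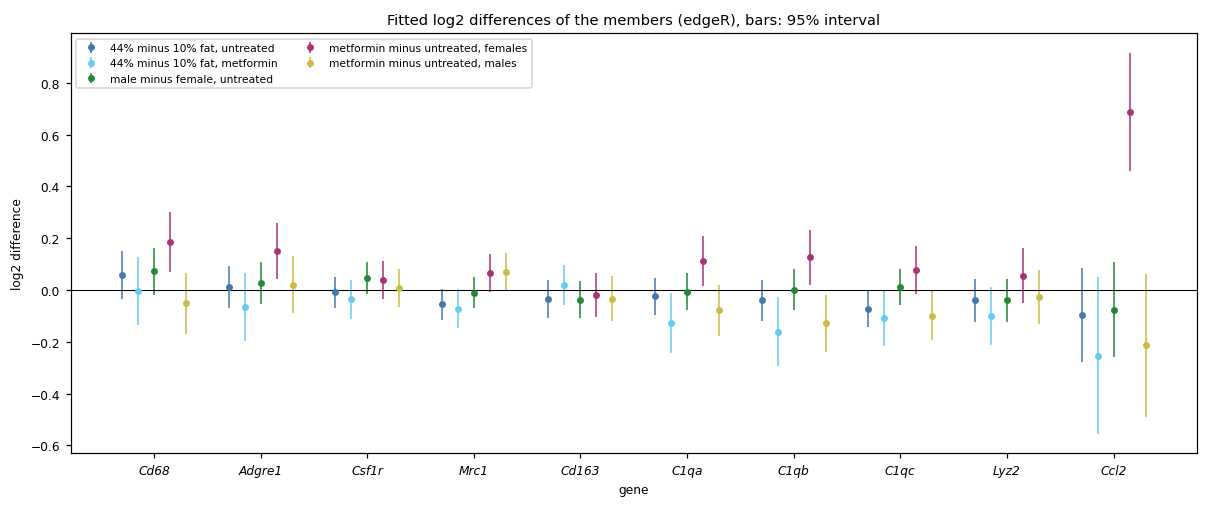
Fitted log2 differences of the 10 markers from edgeR for 5 contrasts (points, with 95% intervals as bars and a line at 0). The diet and sex differences lie between -0.25 and 0.07, with intervals that mostly span 0, and the metformin difference of Ccl2 in females (0.69) lies above that in males (-0.21).

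Between the sexes, edgeR called 0 of 10 markers in untreated animals, with 0 at an unadjusted p under 0.05, although 67.1% of the genes tested were called and 69.5% had an unadjusted p under 0.05. limma voom also called 0. The log2 differences of males against females ran from -0.08 for Ccl2 to 0.07 for Cd68, 5 above and 5 below 0. Mrc1 ranged from 2.09 to 35.5 CPM (median 16.2) in 236 females and from 2.55 to 33.1 CPM (median 16) in 233 males, a difference of -0.738% (95% interval -4.78% to 3.47%). Lyz2 had medians of 29.3 CPM (3.47 to 81.5) in females and 28.8 CPM (5.95 to 123) in males, with a difference of -2.69% (-8.11% to 3.05%). The sexes overlapped for every marker.

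In the same fit, where 67.1% of all genes tested were called by sex, lists of related genes were counted in the same way. Of the 16 genes common to macrophages, 9 were called, 7 of them lower in males. Of the 9 tested markers of recruited cells, 8 were lower in males. Among the 12 resident markers 9 were called, 4 higher and 5 lower in males, and Cbr2 was higher in males by 1.49 ± 0.04 on the log2 scale (edgeR adjusted p = 5.81e-135). Mast cell markers were lower in males for 6 of 6 genes, among them Cpa3 (-0.65 ± 0.04), and adipocyte markers were called for 7 of 7 (6 lower). With the 28 libraries rich in T cell transcripts left out, 1 of the 10 markers was called by sex, Csf1r at 0.07 ± 0.03 (edgeR adjusted p = 0.0311).

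All 10 markers differed among the 20 strains of untreated animals in edgeR (95.4% of 16384 genes tested), and limma voom called 9 of them, all but Ccl2. The smallest adjusted p was that of Mrc1 (F = 13.1, adjusted p = 4.66e-32), followed by Lyz2 (6.23e-22), Cd163 (5.30e-19), C1qc (8.69e-18), Csf1r (2.58e-17) and C1qa (2.61e-15). Adgre1 (9.17e-12), C1qb (2.85e-11), Cd68 (1.95e-08) and Ccl2 (0.00280) followed. Strain took up 27.6% of the variance of Mrc1, 25.6% of that of Lyz2, 20.7% for Cd163, 19.3% for C1qc, 17.8% for Csf1r and 17.0% for C1qa. The share was 13.2% for C1qb, 11.4% for Adgre1, 7.54% for Cd68 and 0.517% for Ccl2, against a median of 15.4% over the genes tested. Without the libraries that stood apart it was 38.3% for Mrc1 and 27.9% for Csf1r. Sex took up at most 0.280% and diet at most 0.636% of the variance of any of the 10 markers, where the median gene had 1.58% and 0.0726%.

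In untreated animals, strain means spanned less than 3-fold for each marker. Mrc1 was highest in (CC042/GeniUncJ x CC040/TauUncJ)F1, where the 24 untreated animals lay between 14.8 and 29.4 CPM around a median of 23.5, and lowest in (CC002/UncJ x CC043/GeniUncJ)F1, where 24 animals lay between 9.02 and 18.2 CPM around a median of 12.0. The highest animals of the lowest strain thus reached the lowest of the highest strain. The means of these strains were 23.4 ± 4.01 and 12.6 ± 2.43 CPM (SD), a ratio of 1.85. Lyz2 ran from 43.0 CPM in (CC051/TauUncJ x CC019/TauUncJ)F1 to 19 CPM in (CC011/UncJ x CC005/TauUncJ)F1, a ratio of 2.26. The ratio of the highest to the lowest strain mean was 1.83 for Adgre1, 1.80 for Cd163, 1.68 for C1qa, 1.65 for C1qb, 1.64 for Cd68, 1.61 for Csf1r and 1.59 for C1qc, and 2.66 for the sparse Ccl2. In the order of strain means, each of the 19 steps from a strain to the next was smaller than the SD within the strains, for all 10 markers, and the animals of the highest and lowest strain overlapped for all 10. In metformin animals the highest and lowest strains did not overlap for Cd68, Csf1r, Mrc1 and Lyz2, with Mrc1 at 29.7 CPM in (CC042/GeniUncJ x CC040/TauUncJ)F1 and 12.7 CPM in (CC011/UncJ x CC027/GeniUncJ)F1. These strains were picked as extremes by the same values. With 7 to 13 metformin animals per strain, a gap arises more easily than with 10 to 26 untreated animals. The share of all genes with such a gap was not computed.

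Some strains stood high or low for most of the markers. (CC009/UncJ x CC013/GeniUncJ)F1 had a mean rank of 3.5 over the 10 markers (1 being the highest of 20) and was among the 5 highest strains for 8 of them, but all of its libraries lay in the upper identifier range, so that strain and range cannot be told apart there. (CC042/GeniUncJ x CC040/TauUncJ)F1 had a mean rank of 3.9 with 8 markers among the 5 highest. At the other end, (CC004/TauUncJ x CC019/TauUncJ)F1 had a mean rank of 17 with 9 markers among the 5 lowest, and (CC019/TauUncJ x CC075/UncJ)F1 a mean rank of 16.8.

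**Figure D3:**
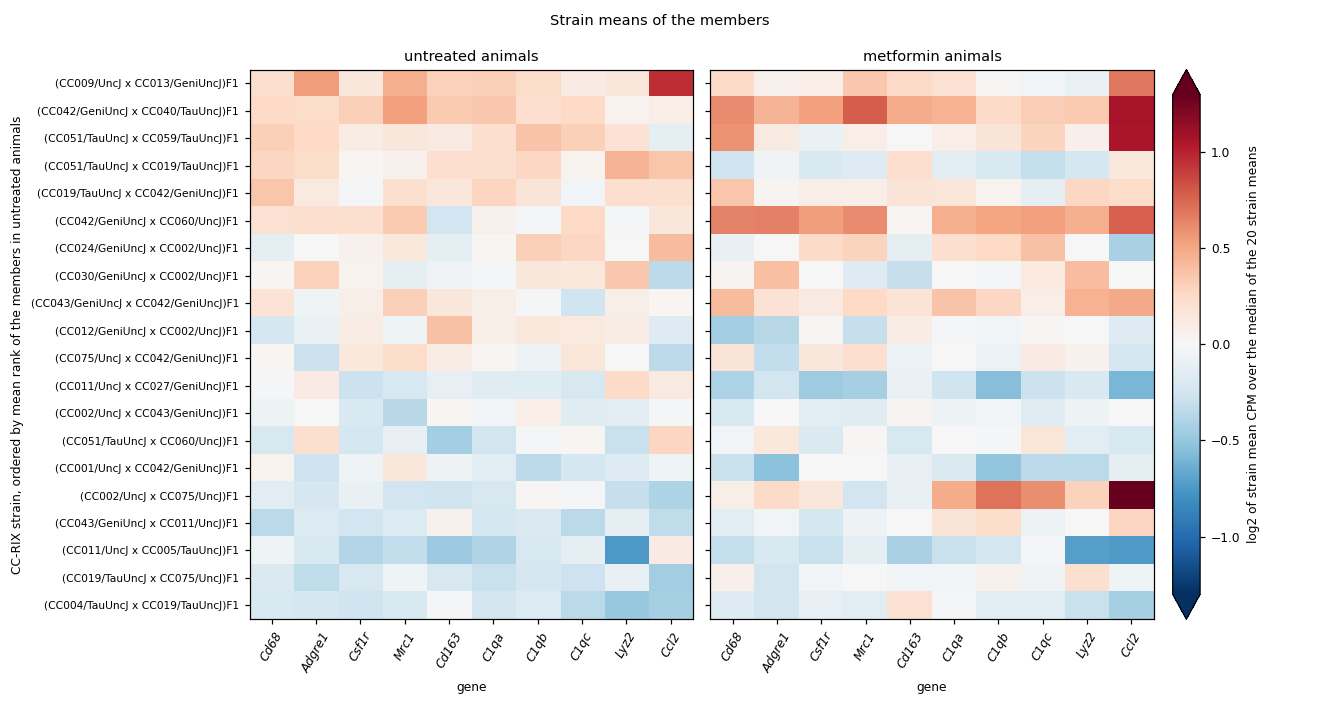
Strain means of the 10 markers in untreated animals (left) and metformin animals (right), as log2 of the mean CPM over the median of the 20 strain means in the same panel (red above, blue below), with strains in order of mean rank in untreated animals. The strain (CC042/GeniUncJ x CC040/TauUncJ)F1 is high for most markers in both panels, (CC051/TauUncJ x CC019/TauUncJ)F1 is high in the left panel and lower in the right, and the cell for Ccl2 of (CC002/UncJ x CC075/UncJ)F1 under metformin lies beyond the end of the colour scale.

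The order of strains was then compared between untreated and metformin animals, 2 sets with no animal in common, from strain means adjusted for sex and diet. Pearson's r over the 20 strains was 0.858 for Mrc1 (Spearman's rho 0.848), 0.798 for Csf1r (rho 0.817), 0.772 for Cd163 (rho 0.750) and 0.711 for C1qc (rho 0.696). Adgre1 had r = 0.697 (rho 0.755), Cd68 0.681 (rho 0.598), Lyz2 0.625 (rho 0.436), C1qa 0.599 (rho 0.507), C1qb 0.459 (rho 0.337) and Ccl2 0.412 (rho 0.179). In permutation tests adjusted over the 10 markers, r passed for 9 of 10, with adjusted p values from 1e-04 for Mrc1, whose raw p of 1e-05 is the smallest that 100000 permutations can give, to 0.0468 for C1qb, and did not for Ccl2 (adjusted permutation p = 0.0712). The share of all genes that would pass was not computed. As 95.4% of genes tested differed by strain in untreated animals, the 9 of 10 cannot be read as particular to these markers. For C1qb the call did not hold on the deposited transformed values (r = 0.413, adjusted permutation p = 0.0783) or without the libraries that stood apart (r = 0.453, adjusted permutation p = 0.0501). The adjusted permutation p of rho missed 0.05 for C1qb (0.166), Lyz2 (0.0701) and Ccl2 (0.449).

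Without the 2 strains farthest from the median of the untreated means, r was 0.796 for Mrc1, 0.728 for Csf1r, 0.664 for Cd163, 0.702 for C1qc, 0.718 for Adgre1 and 0.649 for Cd68. It dropped to 0.285 for Lyz2, 0.384 for C1qa, 0.250 for C1qb and 0.212 for Ccl2, so that the value of r for these 4 depended on those 2 strains. Leaving out the farthest strains also narrows the range, which can lower r by itself. Within the lower identifier range, which left 15 strains, r was 0.781 for Mrc1 and 0.794 for Cd163 and Adgre1, and fell to 0.363 for Cd68 (adjusted permutation p = 0.204) and 0.0650 for Ccl2. The mean rank of (CC042/GeniUncJ x CC040/TauUncJ)F1 was 2.6 in metformin animals, with all 10 markers among the 5 highest. (CC051/TauUncJ x CC019/TauUncJ)F1 moved from a mean rank of 5.3 in untreated to 14.4 in metformin animals.

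**Figure D4:**
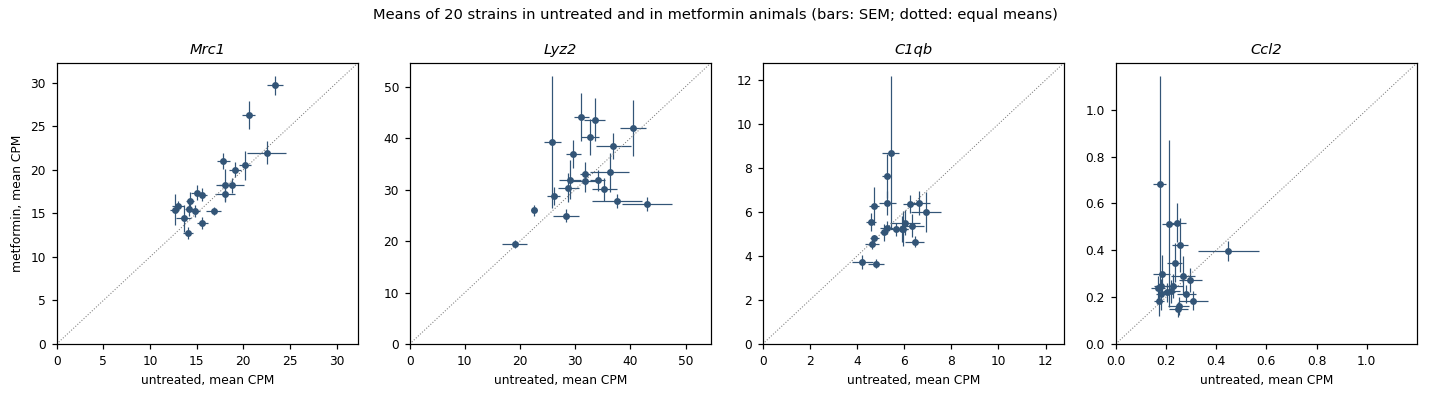
Mean CPM of 20 strains in untreated animals (horizontal) and metformin animals (vertical) for Mrc1, Lyz2, C1qb and Ccl2, with bars for the standard error of the mean and a dotted line where both means are equal. Points for Mrc1 rise together from 12.6 to 23.4 CPM untreated (r = 0.858), and the highest strain lies above the line at 29.7 CPM with metformin. Those for Ccl2 are spread (r = 0.412). The r values are from log2 means adjusted for sex and diet, not from the means drawn.

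Metformin against untreated animals, a contrast that also holds the difference in age, gave 1 of 10 markers called by edgeR (19.4% of 17740 genes tested), with 3 at an unadjusted p under 0.05 (32% of genes). Ccl2 ranged from 0 to 1.29 CPM around a median of 0.190 in 469 untreated animals and from 0 to 5.71 CPM around a median of 0.222 in 234 metformin animals. Most metformin animals lay within the range of the untreated ones, and the highest lay well above it. The fitted difference was 0.32 ± 0.09 on the log2 scale (adjusted p = 0.00733), 24.8% higher (95% interval 9.86% to 41.7%). Without the single library that was highest in the 10 markers it was 0.15 ± 0.09 with an adjusted p of 0.214, and without both libraries highest in Ccl2, each from a metformin female, it was 0.05 ± 0.09 with an adjusted p of 0.711. The difference was -0.05 ± 0.16 in the upper identifier range alone and 0.46 ± 0.11 in the lower. The next smallest p values were those of Mrc1 (0.07 ± 0.03, adjusted p = 0.0627) and Adgre1 (0.09 ± 0.04, adjusted p = 0.114). limma voom and DESeq2 each called 0 of 10, with Ccl2 at 0.14 ± 0.12 (adjusted p = 0.434) and 0.24 ± 0.10 (adjusted p = 0.0832). Without a term for the identifier range 4 were called, Ccl2, Mrc1, Adgre1 and Cd68.

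In the same fit, where 19.4% of all genes tested were called, 6 of 12 resident macrophage markers were called (2 higher and 4 lower with metformin) and 2 of 16 genes common to macrophages (1 higher and 1 lower). T cell markers had a lower fitted value with metformin for 4 of 4 tested genes, among them Trac (-1.41 ± 0.18). Their summed level ran from 0 to 67.7 CPM in untreated animals (median 0.306) and from 0 to 5.24 CPM in metformin animals (median 0.366), so the median was not lower with metformin and the untreated animals reached higher. The neutrophil gene S100a9 was higher by 1.45 ± 0.14. The summed level of the 2 neutrophil genes present was near the floor. It ran from 0 to 1.00 CPM in untreated animals (median 0.0770) and from 0 to 10.7 CPM in metformin animals (median 0.0952). The part of these cells in the Ccl2 value was not tested.

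The metformin difference depended on sex for 2 of 10 markers in edgeR (3.12% of genes tested), with 5 markers at an unadjusted p under 0.05 (20% of genes). Ccl2 had medians of 0.195 CPM (0 to 1.29) in 236 untreated females and 0.268 CPM (0 to 5.71) in 116 metformin females, and of 0.188 CPM (0 to 1.10) in 233 untreated males and 0.182 CPM (0 to 0.674) in 118 metformin males. Only the metformin females reached beyond 1.29 CPM. The fitted difference was 0.69 ± 0.12 in females and -0.21 ± 0.14 in males, and the difference between the sexes was -0.90 ± 0.18 (adjusted p = 0.000764). C1qb had medians of 5.36 CPM (0.574 to 14.7) in untreated and 5.09 CPM (2.70 to 46.4) in metformin females, and of 5.07 CPM (0.771 to 18.7) and 4.85 CPM (1.66 to 13.2) in males. Its fitted differences were 0.13 ± 0.05 in females and -0.13 ± 0.06 in males, which differed by -0.25 ± 0.08 (adjusted p = 0.0357). In females alone edgeR called 2 of 10 (10.1% of genes tested), Ccl2 and Cd68 (0.18 ± 0.06, adjusted p = 0.0251), with 5 at an unadjusted p under 0.05 (22.3% of genes). In males edgeR called 0 of 10 (16.7%), with 2 at an unadjusted p under 0.05 (31.4% of genes). For the difference between the sexes, limma voom called Ccl2 alone (adjusted p = 0.0471). Cd68 (-0.24 ± 0.08, adjusted p = 0.0773), C1qa (-0.19 ± 0.07, 0.0869) and C1qc (-0.18 ± 0.06, 0.0998) were in the same direction and did not pass.

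These differences rested in part on few libraries. Without the single library highest in the markers, the difference between the sexes was -0.68 ± 0.17 for Ccl2 (adjusted p = 0.0113) and -0.17 ± 0.07 for C1qb (adjusted p = 0.158). The second highest Ccl2 value, 4.40 CPM, came from a metformin female of (CC051/TauUncJ x CC059/TauUncJ)F1 on 44% fat with the highest Cd68 of all libraries (17.5 CPM), T cell markers at 7.70 times and recruited-cell markers at 8.83 times their median. Without both of these libraries the difference for Ccl2 was -0.56 ± 0.16 (adjusted p = 0.0306) and for C1qb -0.16 ± 0.07 (adjusted p = 0.197), and in females alone the Ccl2 difference was 0.30 ± 0.11 (adjusted p = 0.0582) and that of Cd68 0.09 ± 0.06 (adjusted p = 0.331). In the upper identifier range alone it was -0.42 ± 0.31 for Ccl2 (adjusted p = 0.998) and 0.05 ± 0.14 for C1qb. Other genes with a call in the same test included Fcgr1 (-0.55 ± 0.15) and Fcer1g (-0.28 ± 0.09), subunits of the high-affinity receptors for immunoglobulin G and their signalling chain, and the chemokines Ccl9 (-0.39 ± 0.11) and Ccl8 (-0.73 ± 0.20), as well as the neutrophil gene S100a9 (-1.09 ± 0.30), the complement receptor C5ar1 (-0.33 ± 0.09) and the haemoglobin gene Hba-a1 (-0.55 ± 0.15). Calls in the opposite direction included the B cell genes Cd79b (1.74 ± 0.43) and Jchain (1.03 ± 0.29) and the muscle myosin Myh1 (0.16 ± 0.04). Of the 16 genes common to macrophages 2 were called and of 12 tested growth factors and attractants 3, where 3.12% of all genes were. The part of these cells in the values was not tested.

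The metformin difference depended on strain for 5 of 10 markers in edgeR (11.6% of genes tested), with 8 at an unadjusted p under 0.05 (26% of genes). The 5 called were Ccl2 (adjusted p = 2.86e-06), C1qb (9.34e-05), Lyz2 (0.000873), C1qa (0.00225) and C1qc (0.0149). In (CC051/TauUncJ x CC019/TauUncJ)F1 the 24 untreated and 12 metformin animals had 43.0 ± 22.0 and 27.2 ± 4.50 CPM of Lyz2 and 6.45 ± 1.97 and 4.65 ± 0.867 CPM of C1qb (SD), log2 differences of -0.54 and -0.43 that were the lowest of the 20 strains. In (CC042/GeniUncJ x CC060/UncJ)F1 the 22 untreated and 11 metformin animals had 31.1 ± 6.39 and 44.1 ± 15.6 CPM of Lyz2 and 5.27 ± 0.867 and 7.64 ± 3.36 CPM of C1qb, log2 differences of 0.46 and 0.45 that were the highest. The highest difference for Ccl2 was that of (CC042/GeniUncJ x CC040/TauUncJ)F1, with 0.246 ± 0.160 CPM in 24 untreated and 0.518 ± 0.287 CPM in 12 metformin animals. Without the single library highest in the markers, 3 of the 5 calls were left (C1qb at 0.0079, Lyz2 at 0.0146 and Ccl2 at 0.0247), and without both libraries highest in Ccl2 there were 5 calls, with C1qc (adjusted p = 0.222) out and Mrc1 (0.0445) in. Without the 28 libraries rich in T cell transcripts edgeR called 0, and limma voom called 0, with 2 at an unadjusted p under 0.05. In the lower identifier range alone 6 were called, and in the upper 0. In the test over all animals, with its 11.6% of all genes called, the calls took in 4 of 4 T cell, 4 of 5 B cell, 7 of 7 adipocyte, 6 of 6 liver and 7 of 9 recruited-cell markers and 15 of the 16 genes common to macrophages, and their part in the values of the 10 markers was not tested.

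The markers rose and fell together from animal to animal. After strain, sex, diet, treatment and identifier range were taken out, Pearson's r over the 703 libraries was above 0 for all 45 pairs of markers, from 0.0338 for Ccl2 and Cd163 to 0.850 for C1qa and C1qc, with a median of 0.613. In permutation tests adjusted over the 45 pairs, 44 passed, and the pair of Ccl2 and Cd163 did not (adjusted permutation p = 0.371). The 3 complement genes formed the tightest group, with r of 0.844 to 0.850 among them and of 0.768 to 0.780 with Lyz2. Mrc1 and Csf1r had r = 0.807, and Mrc1 and Cd163 had 0.645. Cd163 and Cd68 were loosely tied (r = 0.382). Ccl2 had r of at most 0.348, that with Cd68. All pairs share the libraries and their depth. The counts that passed were 44 of 45 in the lower and in the upper identifier range. Without the 6 libraries that stood apart, 44 of 45 were above 0, with a median of 0.535.

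**Figure D5:**
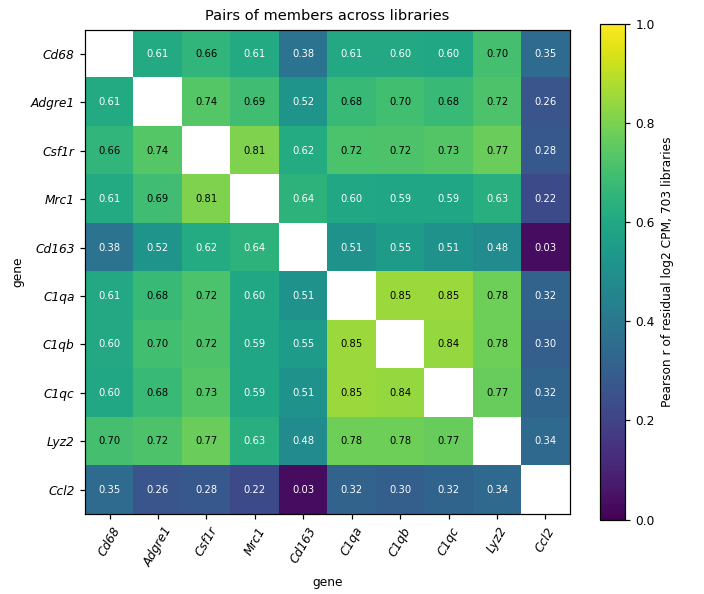
Pearson's r of residual log2 CPM over 703 libraries for the 45 pairs of markers (colour from 0 to 1, value in each cell, diagonal left blank). The block of C1qa, C1qb and C1qc reaches 0.84 to 0.85, and the cells of Ccl2 lie between 0.03 and 0.35.

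The genes most like each marker across the libraries, among 17730 others, fell into recurring names. Ctss, which encodes the lysosomal protease cathepsin S, was the nearest to Lyz2 (r = 0.870), C1qa (0.720), C1qc (0.715) and Cd68 (0.695), and was second for C1qb (0.727) and Adgre1 (0.671). F13a1, which encodes the A subunit of coagulation factor XIII, was the nearest to Mrc1 (0.822), Csf1r (0.780), Cd163 (0.700) and Adgre1 (0.686). The chemokine gene Ccl6 was nearest to C1qb (0.732). After F13a1, Mrc1 was followed by the complement proteases C1ra (0.729) and C1s1 (0.727), and Cd163 by the basement membrane gene Nid1 (0.675) and by Pdgfra (0.648), a receptor of fibroblasts. For Ccl2 the highest r was 0.390, with Serpinb1a. All of these values were lower when the 6 libraries that stood apart were left out, at 0.840 for Lyz2 and Ctss and 0.738 for Mrc1 and F13a1.

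The sum of the 10 markers was compared in the same way with the summed level of other cell type lists. Its r was 0.878 with the 16 genes common to macrophages, 0.735 with 9 recruited-cell markers, 0.700 with 12 resident markers, 0.698 with other complement genes, 0.624 with mast cell markers and 0.532 with fibroblast markers. It was 0.405 with T cell markers, 0.315 with adipocyte markers, 0.123 with endothelial markers and -0.256 with muscle fibre markers. Without the 6 libraries that stood apart, r was 0.878 with the genes common to macrophages, 0.745 with recruited-cell, 0.644 with resident, 0.604 with complement, 0.510 with mast cell, 0.429 with fibroblast, 0.444 with T cell, 0.270 with adipocyte, 0.0214 with endothelial and -0.290 with muscle fibre markers. The summed level of the 10 markers ranged from 12.8 to 273 CPM in untreated animals (median 94.8) and from 58.6 to 442 CPM in metformin animals (median 94.3).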

How the data were processed

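Polyadenylated RNA of 703 gastrocnemius muscles was sequenced by the authors, who made the deposited expected counts per gene with EMASE and GBRS on GRCm38. Genes with few reads had been removed. All expected counts were whole numbers. A second deposited table, on a log2-like scale (the authors' DESeq2 variance-stabilising transformation), served as an alternative. Groups came from the labels.

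Counts were scaled by TMM and tested with edgeR 4.0.16 (filterByExpr, quasi-likelihood test, Benjamini-Hochberg adjustment over all genes, threshold 0.05), after tests on simulated data. Models held strain, sex, diet, sequencing identifier range and, where relevant, metformin. Log2 CPM used a prior count of 2, and permutation tests drew 100000 resamples. Library totals are given with the results. Alternatives, including limma 3.58.1 and DESeq2 1.42.0 in R 4.3.3, other filters and libraries left out, are given at the end. The markers, lists and rules were chosen with earlier results of these data known. From each other list at most the 3 called genes with the lowest adjusted p, and at most 10 per comparison, were named, and for each marker the 3 genes most alike.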

Additional observations from a re-analysis of the deposited data

Results flagged for a closer look

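A single animal stood far above the others of its group for Adgre1, the gene of the F4/80 antigen. It was untreated, of (CC009/UncJ x CC013/GeniUncJ)F1 on 44% fat, and had 8.03 CPM, where the next highest of the 6 animals had 3.84 CPM. The same library had the highest Mrc1 (35.5 CPM) and Ccl2 (1.29 CPM) of all untreated animals. Its sum of the 10 markers was 1.73 times the median. Genes common to macrophages stood at 1.87 times and recruited-cell markers at 2.02 times their median. Liver markers stood at 10.0 times, neutrophil markers at 6.60 times, red blood cell markers at 4.35 times and mast cell markers at 1.94 times their median. The part of these cells was not tested. Of 20 groups small enough for this check, 1 held such an animal, and chance gives about 1 in 20 for independent checks. Checks of several markers in the same animals are not independent.

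The metformin difference was lower in males than in females for Ccl2 (-0.90 on the log2 scale) and C1qb (-0.25), by the test of the difference itself. It also differed among the 20 strains, by the same kind of test in edgeR, for Ccl2 (adjusted p = 2.86e-06), C1qb (9.34e-05), Lyz2 (0.000873), C1qa (0.00225) and C1qc (0.0149). The range of sequencing identifiers and 2 metformin females with high T cell and recruited-cell transcripts moved with these results, as given above, and their part was not tested.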

How the results depend on the processing

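The counts of markers called are those of edgeR unless another tool is named, and causes of changes were not tested.

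Against 0 for diet in either treatment and for sex, 1 for metformin, 2 for metformin by sex and 5 for metformin by strain, these counts moved by over 1.5 times. With DESeq2, the count of markers called was 0 for metformin. Among genes with a mean of at least 5 CPM, which left out Cd68, Adgre1 and Ccl2, the count of markers called was 0 for metformin. With limma voom, the count of markers called was 1 for diet in metformin animals, 0 for metformin, 1 for metformin by sex and 0 for metformin by strain. Without a term for the range, the count of markers called was 4 for metformin. In the upper range alone, the count of markers called was 0 for metformin, 0 for metformin by sex and 0 for metformin by strain. Without both libraries highest in Ccl2, the count of markers called was 0 for metformin and 1 for metformin by sex. Without libraries rich in T cell transcripts, the count of markers called was 0 for metformin, 1 for sex, 1 for metformin by sex and 0 for metformin by strain. Without libraries rich in liver transcripts, the count of markers called was 2 for metformin. Without the 6 libraries that stood apart, the count of markers called was 0 for metformin and 1 for metformin by sex. Without libraries rich in red blood cell transcripts, the count of markers called was 2 for diet in metformin animals and 2 for metformin. Without the library highest in the markers, the count of markers called was 0 for metformin, 1 for metformin by sex and 3 for metformin by strain.

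Within single strains, the run without the libraries that stood apart, which also used another draw of resamples, gave 0 diet differences in place of 1, although none of those libraries was of the strain with that difference.

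The count over all genes was 3320 for diet in untreated and 1979 in metformin animals, 3437 for metformin, 10998 for sex, 15626 for strain, 93 for diet by sex, 677 for diet by strain, 16 for metformin by diet, 554 for metformin by sex and 2061 for metformin by strain. Among genes with a mean of at least 5 CPM, the genes called were 2240 for metformin, 6408 for sex and 8529 for strain. With limma voom, the genes called were 52 for diet by sex, 105 for diet by strain, 0 for metformin by diet, 282 for metformin by sex and 506 for metformin by strain. In the lower range alone, the genes called were 615 for diet in metformin animals, 32 for diet by sex, 42 for metformin by diet and 319 for metformin by sex. In the upper range alone, the genes called were 365 for diet in untreated animals, 836 for diet in metformin animals, 1 for metformin, 4329 for sex, 9149 for strain, 1 for metformin by sex and 350 for metformin by strain. Without libraries rich in T cell transcripts, the genes called were 323 for metformin by sex and 1304 for metformin by strain.

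The sign of 75 of 668 recomputed log2 differences of single markers turned, and 570 kept both their sign and their side of the threshold. The sign turned with DESeq2 for metformin C1qb (-0.00028). It turned with DESeq2 size factors in edgeR for sex C1qb (-0.0038). Among genes with a mean of at least 5 CPM, it turned for sex C1qb (-0.027) and C1qc (-0.017). The sign turned with limma voom for diet in untreated animals Ccl2 (0.032), for metformin C1qa (-0.0058) and C1qb (-0.026), for sex C1qb (-0.0022) and Ccl2 (0.057), for metformin by diet Ccl2 (0.041), for metformin by sex Cd163 (0.0054). It turned in the lower range alone for diet in untreated animals Adgre1 (-0.0013), for metformin C1qb (-0.031) and Lyz2 (-0.012), for sex C1qa (0.023) and Mrc1 (0.0026), for metformin by sex Mrc1 (-0.015). Without a term for the range, it turned for metformin C1qc (0.0072). The sign turned on the transformed values for diet in metformin animals Cd68 (0.0055), for metformin C1qb (-0.015), for sex C1qb (-0.0095) and C1qc (-0.00065). It turned in the upper range alone for diet in untreated animals C1qc (0.0097) and Ccl2 (0.082), for diet in metformin animals Cd68 (0.042), Adgre1 (0.045) and Cd163 (-0.017), for metformin Ccl2 (-0.051) and Cd163 (0.10), for sex Cd68 (-0.16), Adgre1 (-0.25), Csf1r (-0.041), C1qb (-0.26) and C1qc (-0.13), for metformin by sex Cd68 (0.053), Adgre1 (0.27), Csf1r (0.035), C1qa (0.086), C1qb (0.049), C1qc (0.024), Lyz2 (0.11) and Cd163 (0.071). Without both libraries highest in Ccl2, it turned for metformin C1qa (-0.031), C1qb (-0.057) and Lyz2 (-0.028), for metformin by sex Csf1r (0.0046) and Cd163 (0.0065). The sign turned without libraries rich in T cell transcripts for metformin C1qa (-0.028) and C1qb (-0.058), for sex C1qa (0.0031), Lyz2 (0.019) and Ccl2 (0.0047), for metformin by sex Cd163 (0.019). It turned without libraries rich in liver transcripts for diet in metformin animals Cd68 (0.034), for metformin C1qc (0.0044), for sex C1qa (0.017) and Mrc1 (0.0066). Without libraries that went against their label, it turned for diet in metformin animals Cd68 (0.0049), for metformin C1qb (-0.0092), for sex C1qb (-0.00047). The sign turned without the 6 libraries that stood apart for diet in metformin animals Cd68 (0.026), for metformin Csf1r (-0.00022), C1qa (-0.030), C1qb (-0.053) and Lyz2 (-0.027). It turned without libraries rich in red blood cell transcripts for diet in untreated animals Adgre1 (-0.00048), for metformin C1qb (-0.0093), for sex C1qb (-0.014) and C1qc (-0.0022). Without the library highest in the markers, it turned for diet in metformin animals Cd68 (0.026), for metformin C1qa (-0.023), C1qb (-0.045) and Lyz2 (-0.019), for metformin by sex Csf1r (0.00075) and Cd163 (0.00062).

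The libraries left out for the level of the markers, T cell transcripts or Ccl2, and the upper range alone for the comparisons of metformin by sex and by strain, were chosen after seeing the data. Of 90 recomputed counts of markers called, 66 stayed within 1.5 times. DESeq2 was run for diet in untreated animals and for metformin. Cd68, Adgre1 and Ccl2, with means of 2.59, 2.80 and 0.256 CPM, could not be tested among genes with a mean of at least 5 CPM. Ccl2 had a median of 10 counts, and its depth limits each of its comparisons.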

Other observations

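CC042/GeniUncJ was 1 of the parental lines in 6 crosses, which were looked at after the values had been seen. For Mrc1 these crosses held the ranks 1, 3, 4, 5, 6 and 7 among the 20 strains in untreated animals and 1, 2, 5, 6, 8 and 10 in metformin animals. For Csf1r their ranks were 1, 2, 4, 7, 11 and 12 in untreated and 1, 2, 5, 6, 7 and 10 in metformin animals. For C1qb they ran from 5 to 20 and from 2 to 19. The strains share a parent and were picked for this pattern, so no test was made.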
